A study of Mus musculus with 8 samples.

Results

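The histone genes measured here were every gene of the expression table whose mouse symbol, in the naming of the GRCm38 era, begins with Hist1h to Hist4h, H1f, H2af, H2bf or H3f, and 84 of the 21959 listed genes met that rule. Of these, 68 carry cluster symbols (Hist1h to Hist4h) and 16 carry variant symbols (H1f, H2af, H2bf, H3f). Each library holds amplified RNA of 5 to 10 putative primordial oocytes picked by mouth pipette from dissociated mouse ovaries of postnatal day 1. The comparison set 4 libraries of Rbpms2 knockout oocytes against 4 libraries of wild-type oocytes. Rbpms2 encodes an RNA-binding protein, and the study asks what its loss does to early oocytes. The labels give no strain, no deleted exon and no number of animals, and no label ties a tube to an animal, so the p-values reflect tube-to-tube spread, which may be partly technical.

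Core histones H2A, H2B, H3 and H4 wrap DNA into nucleosomes, and linker histones of the H1 family bind where DNA enters and leaves. Most cluster genes are transcribed in S phase, lack introns and end their mRNA in a conserved stem-loop in place of a poly(A) tail. Variant genes lie mostly outside the clusters, mostly make polyadenylated mRNA through the cell cycle, and include forms known from germ cells: H1foo in growing oocytes, and Hist1h2aa (TH2A) and Hist1h2ba (TH2B), which have cluster symbols, in testis and oocytes. Non-growing oocytes at birth are arrested in meiotic prophase, after their last S phase.

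The stem-loop is the sequence that separates the 2 kinds of histone mRNA, and it is shown here for the genes whose levels matter most below. A search of annotated GENCODE M21 transcripts, in the sense direction, for the 16-base pattern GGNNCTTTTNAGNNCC found it in 44 of the 68 cluster genes and in 2 of the 16 variants, H2afx and H2bfm. Among all 21851 listed genes with a transcript the share was 0.357%, and outside the histone rule it was 0.147%. Some cluster genes without a match have short annotated transcripts (381 bases in Hist1h2bl, 312 in Hist1h4k). A stem-loop past the annotated end would be missed, so no match does not mean no stem-loop. Sequences are written as DNA, 5′ to 3′, with the TTTT run of the pattern in capitals. They are from build GRCm38.
H2bfm, chrX:136928071-136928086, plus strand: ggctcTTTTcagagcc
H2afx, chr9:44335240-44335255, plus strand: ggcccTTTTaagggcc
Hist1h2bp, chr13:21787923-21787938, plus strand: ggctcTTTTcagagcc
Hist1h3a, chr13:23761890-23761905, minus strand: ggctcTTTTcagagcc
Hist1h4d, chr13:23581950-23581965, plus strand: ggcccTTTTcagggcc
The X-linked variant H2bfm holds the same 16 bases as Hist1h2bp and Hist1h3a, while Hist1h4d and H2afx carry other forms. In the longest annotated transcript with a match, 290 bases follow the stem-loop in H2bfm, 822 in H2afx and 770 in Hist1h4d. In Hist1h2bp it is 38 and in Hist1h3a 37, but the annotated gene of Hist1h2bp runs on to chr13:21789213. Both H2bfm and Hist1h2bp have an annotated transcript with the poly(A) signal AATAAA in its last 40 bases. H2afx, Hist1h3a and Hist1h4d have none. How the amplification was primed is not given in the sources used here, so a cluster gene's level is that of the RNA the amplification captured.

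Values are FPKM, fragments scaled to transcript length and to library depth, and a gene was tested where it reached 1 FPKM in at least 4 of the 8 libraries. Rbpms2 itself was at 38.4, 58.3, 30.99 and 42.5 FPKM in knockout libraries, against 158, 167, 136 and 213 FPKM in wild-type libraries (log2 fold change -1.98, SE 0.22, limma adjusted p = 7.26e-05). Correlations of log2 values were 0.845 to 0.928 within knockout, 0.888 to 0.959 within wild type and 0.624 to 0.744 between genotypes. Oocyte markers averaged 4.99 to 5.82 log2(FPKM + 1) in knockout and 7.19 to 7.68 in wild type, and 6 of their 10 genes were called lower and 4 higher. Libraries also held RNA of other cells. Summed granulosa markers (12 genes) ranged from 13.7 to 473 FPKM in knockout and from 2.05 to 60.4 FPKM in wild type, stromal markers (12) from 11.5 to 341 and from 4.92 to 93.5 FPKM, and immune markers (12) from 17.9 to 454 and from 7.79 to 26.9 FPKM. Endothelial markers (12) ranged from 5.98 to 354 FPKM in knockout and from 4.81 to 8.69 FPKM in wild type, and globin and other erythroid markers (7) from 99.6 to 3212 and from 11.9 to 5368 FPKM. The immune markers C1qa and C1qc were at 0 in all wild-type libraries, as was the endothelial marker Esam, and the erythroid marker Slc4a1 was at 0 in all knockout libraries. Knockout replicates 2 and 3 and wild-type replicate 3 were richest in stromal and granulosa markers, knockout replicate 1 in endothelial markers, and wild-type replicates 1 and 3 in erythroid markers. In such mixed tubes fewer cells of a type and less RNA per cell cannot be told apart.

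Histone RNA as a whole took a larger part of the RNA in knockout libraries. Its sum was 2352, 2982, 3174 and 2429 FPKM in knockout libraries, against 1261, 1276, 1126 and 1213 FPKM in wild-type libraries, which is 0.842% ± 0.104 of all FPKM in knockout and 0.370% ± 0.0145 in wild type (SD, n = 4 each). The genotypes did not overlap. Variants made this difference: they summed to 2134, 2740, 2639 and 2208 FPKM in knockout, against 1033, 999, 690 and 961 FPKM in wild type. Cluster genes summed to 217, 242, 535 and 221 FPKM in knockout, against 229, 277, 437 and 252 FPKM in wild type, and these ranges overlapped. Variants were thus 89.2% ± 4.05 of histone FPKM in knockout and 75.2% ± 9.41 in wild type (SD, n = 4 each). These sums are descriptions with no test.

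**Figure D1:**
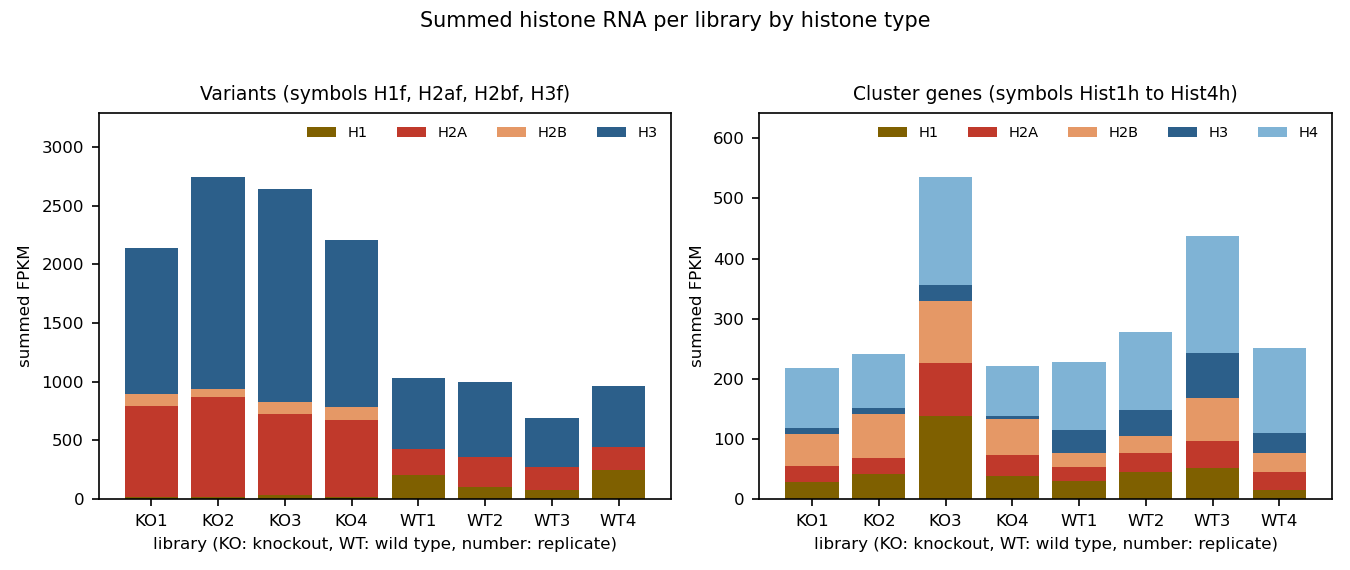
Summed FPKM of variant genes (left panel) and cluster genes (right panel) in each library, with bars stacked by histone type; KO is knockout, WT is wild type and the number is the replicate. Variant sums were 2134 to 2740 FPKM in knockout and 690 to 1033 FPKM in wild type, while cluster sums overlapped and were highest in replicate 3 of both genotypes.

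Gene by gene, 40 of the 84 members could be tested, and knockout levels were called higher in 12 and lower in 9 (limma, adjusted p under 0.05). That is 52.5% called, beside 43.4% of all 11235 genes tested, of which 17.7% were called higher and 25.6% lower. In 15 of the 40 the genotypes did not overlap, a share to be read beside 39.9% of all genes tested. The median log2 fold change was -0.14 over the 40 members and -0.12 over all genes tested. Passing the filter is tied to the outcome for some: H2bfm reached 1 FPKM in knockout libraries only, and H1foo and Hist1h2bh in wild-type libraries only, while 20 members reached it in every library. Of the 44 members not tested, 10 had no reads at all, 14 had reads but a mean below 1 FPKM in both genotypes (at most 0.925), and 20 had a mean of 1 or more in a genotype without reaching 1 FPKM in 4 libraries.

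Among variants 11 of 16 were tested, 7 were called higher and 1 lower (63.6% and 9.09%, beside 17.7% and 25.6% of all genes tested), and the median log2 fold change was 1.09. Among cluster genes 29 of 68 were tested, 5 were called higher and 8 lower (17.2% and 27.6%), shares close to those of all genes tested, and the median was -0.42. By limma-voom on recovered reads 2 cluster genes were called higher and 2 lower, while variants stayed at 7 and 1. Leaving out one library at a time gave 3 to 5 cluster genes higher (3 without knockout replicate 2 or 3 or wild-type replicate 1, 2 or 4) and 5 to 12 lower (5 without knockout replicate 4 or wild-type replicate 3, 12 without knockout replicate 3). Whether variants and cluster genes differed as classes was not tested. Leaving aside Hist1h2aa, Hist1h2ba and Hist1h1t, cluster genes by symbol that are known from germ cells, 3 of 27 tested were higher and 8 lower.

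**Figure D2:**
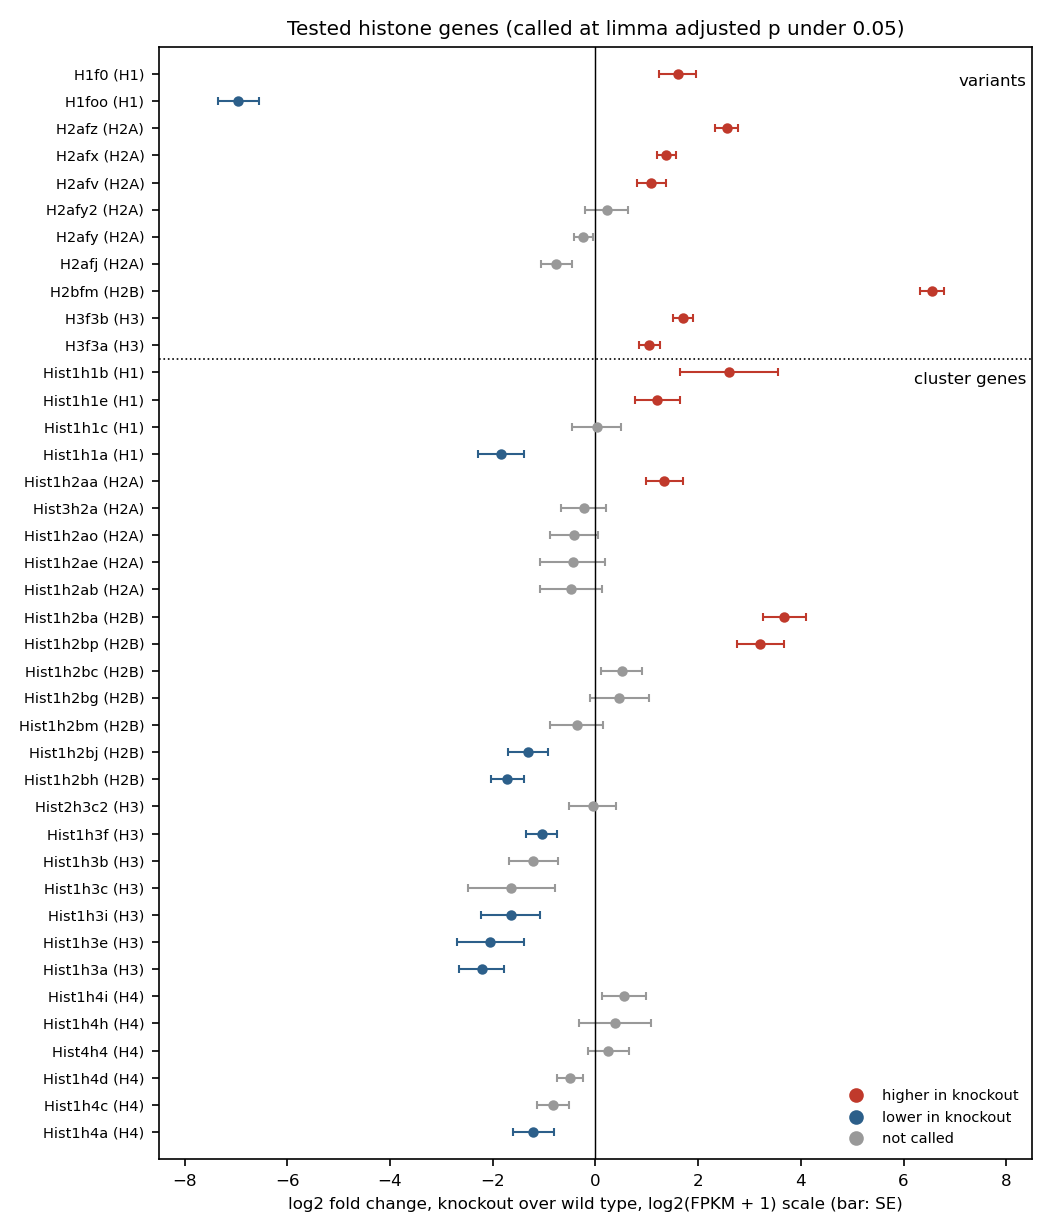
Log2 fold changes, knockout over wild type, of the 40 tested histone genes on the log2(FPKM + 1) scale, with SE as bars, variants above the dotted line and cluster genes below it, and colour for the call. Variants spread from -6.95 (H1foo) to 6.55 (H2bfm), and the 4 cluster H3 genes that were called lie below 0.

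Among linker histones the oocyte form was lower and H1f0 higher in knockout. H1foo, the linker histone of oocytes and early embryos (chr6:115944938-115950236, plus strand, GRCm38), was at 0.285, 0, 0 and 0 FPKM in knockout libraries, against 199, 94.6, 62.6 and 246 FPKM in wild-type libraries. All of its knockout signal was 4 reads, against 7085 in wild type, and the genotypes were far apart. The log2 fold change was -6.95 (SE 0.40, limma adjusted p = 1.05e-06); being set by the pseudocount where levels are near 0, it ran from -11.07 to -4.75 over the alternatives tried. H1f0, a linker histone best known from differentiated and resting cells, was at 16.1, 16.8, 33.1 and 17.0 FPKM in knockout, against 4.73, 5.39, 12.5 and 3.51 FPKM in wild type (log2 fold change 1.60, SE 0.36, limma adjusted p = 0.00484). Replicate 3 was the highest of both genotypes, and the lowest knockout library still exceeded the highest wild-type one. H1foo made up 0.159% ± 0.318 of H1 FPKM in knockout and 72.9% ± 19.96 in wild type (SD, n = 4 each). The share of H1f0 was 28.4% ± 7.01 in knockout and 4.19% ± 3.81 in wild type. All H1 genes together summed to 44.7, 58.7, 173 and 56.7 FPKM in knockout, against 235, 145, 129 and 265 FPKM in wild type.

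The cluster H1 genes encode the somatic linker histones. Hist1h1c (H1.2) averaged 16.3 ± 6.11 FPKM in knockout and 17.6 ± 10.6 FPKM in wild type (SD, n = 4 each) and was not called. Hist1h1a (H1.1) was called lower, with 1.38, 0.742, 2.83 and 1.13 FPKM in knockout, against 9.38, 9.24, 14.4 and 2.43 FPKM in wild type (log2 fold change -1.84, SE 0.45, limma adjusted p = 0.00734). Its lowest wild-type library lay within the knockout range, and it was not called by limma-voom on recovered reads. Hist1h1e (H1.4) was at 5.54, 18.4, 30.3 and 15.8 FPKM in knockout, against 7.29, 3.39, 8.29 and 5.98 FPKM in wild type (log2 fold change 1.21, SE 0.44, limma adjusted p = 0.0459). Hist1h1b (H1.5) was at 2.99, 10.7, 83.5 and 1.97 FPKM in knockout, against 0, 0.542, 4.62 and 0 FPKM in wild type (log2 fold change 2.60, SE 0.95, limma adjusted p = 0.0467). Both of these ranges overlap between genotypes, and knockout replicate 3, the library with the highest granulosa and immune marker levels, is the highest for each. Neither call is firm: Hist1h1e kept its call when knockout replicate 1 was left out and lost it without any other library, and Hist1h1b lost its call without knockout replicate 2 or 3 or wild-type replicate 1, 2 or 4. Hist1h1d (H1.3), not tested, was at 0.132 ± 0.236 FPKM in knockout and 1.27 ± 0.719 FPKM in wild type (SD, n = 4 each). The testis linker gene Hist1h1t had 79 reads in knockout and 0 in wild type, at least 18.7-fold higher if 3 reads are granted to the wild-type group, but it was at 0 in 1 of the 4 knockout libraries and was not tested.

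**Figure D3:**
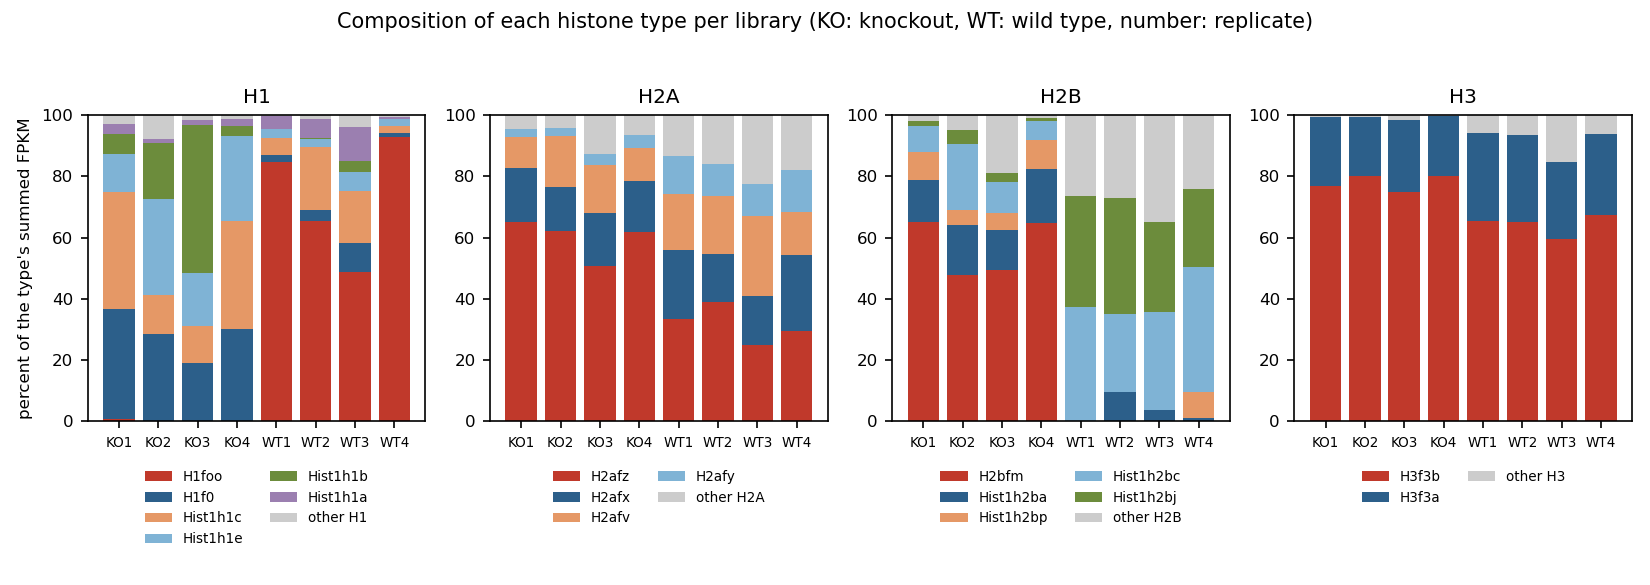
Share of each gene in the summed FPKM of its histone type, per library, for H1, H2A, H2B and H3; grey is the rest of the type. H1foo is 48.6% to 93.0% of H1 in wild type and at most 0.637% in knockout, H2bfm is 47.9% to 65.2% of H2B in knockout and 0 in wild type, and H2afz is 50.6% to 65.0% of H2A in knockout and 24.8% to 38.9% in wild type.

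Of the 6 variant H2A genes tested, H2afz, H2afx and H2afv were called higher in knockout and none was called lower. H2afz encodes H2A.Z, which marks promoters and is exchanged outside S phase. It lies at chr3:137864487-137866922 (plus strand, GRCm38), and was at 524, 548, 393 and 425 FPKM in knockout libraries, against 83.4, 114, 60.2 and 67.1 FPKM in wild-type libraries. Every knockout library exceeded every wild-type one by far, a 5.82-fold difference of means (log2 fold change 2.55, SE 0.22, limma adjusted p = 1.30e-05). H2afz shares 35.4% of its 50-base windows with other annotated genes. H2afx, whose protein is phosphorylated at DNA breaks and, in male meiosis, on the sex chromosomes, was at 144, 126, 135 and 114 FPKM in knockout, against 55.8, 46.5, 39.0 and 57.4 FPKM in wild type (2.61-fold, log2 fold change 1.38, SE 0.18, limma adjusted p = 1.79e-04). H2afv, the second H2A.Z gene, was at 81.1, 148, 122 and 72.9 FPKM in knockout, against 45.4, 54.8, 63.6 and 31.7 FPKM in wild type (2.17-fold, log2 fold change 1.09, SE 0.28, limma adjusted p = 0.00925). None of the 3 genes overlapped between genotypes, which also held for 39.9% of all genes tested. As a share of H2A FPKM H2afz stood at 59.9% ± 6.35 in knockout and 31.6% ± 5.99 in wild type (SD, n = 4 each), whereas the shares of H2afx and H2afv overlapped.

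The other H2A variants tested were not called. H2afy, which encodes macroH2A1, a form tied to silent chromatin, was at 22.3, 21.8, 26.8 and 30.8 FPKM in knockout, against 31.6, 31.4, 25.2 and 31.3 FPKM in wild type (limma adjusted p = 0.345). H2afy2, the macroH2A2 gene, averaged 3.35 ± 2.42 FPKM in knockout and 2.41 ± 1.03 FPKM in wild type (SD, n = 4 each). H2afj, the H2A.J gene, was at 2.43, 5.14, 5.46 and 5.02 FPKM in knockout, against 6.08, 11.6, 6.86 and 8.60 FPKM in wild type. Its groups did not overlap, yet it missed the threshold (log2 fold change -0.76, limma adjusted p = 0.0607). H2afb3, one of the X-linked short H2A.B genes known from testis, had 30 reads in knockout and 0 in wild type (at least 8.77-fold higher), all in 3 knockout libraries, and was not tested. Its relatives H2afb1 and H2afb2 had no reads.

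Of the 5 cluster H2A genes tested only Hist1h2aa was called. This gene for the germ cell histone TH2A was at 17.5, 16.04, 12.9 and 22.8 FPKM in knockout, against 3.87, 3.61, 6.99 and 13.2 FPKM in wild type (2.50-fold, log2 fold change 1.34, SE 0.36, limma adjusted p = 0.0119). Wild-type replicate 4 lay just inside the knockout range, and the gene was not called by limma-voom on recovered reads (adjusted p = 0.129). Hist1h2ab, Hist1h2ae, Hist1h2ao and Hist3h2a had log2 fold changes of -0.47, -0.45, -0.42 and -0.23 and were not called. For Hist1h2ab and Hist1h2ae knockout replicate 3 stood alone at 21.3 and 23.4 FPKM, with the other knockout libraries at 2.04 to 3.76 and 1.58 to 2.73 FPKM, and both were called lower without it. The untested Hist1h2ai averaged 1.71 FPKM in knockout and 0.581 FPKM in wild type, Hist1h2ak 0.427 and 1.34 FPKM, Hist1h2ap 0.575 and 1.25 FPKM, and Hist2h2ac 1.39 and 0.900 FPKM in knockout and wild type.

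Of the 8 H2B genes tested, H2bfm, Hist1h2ba and Hist1h2bp were called higher in knockout. The shares were 37.5% higher and 25.0% lower, beside 17.7% and 25.6% of all genes tested. The log2 fold change of H2bfm was the largest increase among the 40 tested members, on a scale set by the pseudocount where a group is at 0. H2bfm (ENSMUSG00000048155, chrX:136927325-136928376, plus strand, GRCm38) is an X-linked H2B variant gene. It was at 99.1, 66.2, 101 and 112 FPKM in knockout, and at 0 in every wild-type library. This was 4631 reads against none, at least 1283-fold higher with 3 reads granted to the wild-type group (log2 fold change 6.55, SE 0.23, limma adjusted p = 2.95e-08), and none of its 50-base windows is shared with another annotated gene. The fitted value ran from 4.29 to 10.85 over the alternatives. H2bfm made up 56.9% ± 9.43 of H2B FPKM in knockout (SD, n = 4). Hist1h2ba, the gene of the germ cell histone TH2B, was at 20.7, 22.4, 26.7 and 30.5 FPKM in knockout, against 0, 2.62, 2.47 and 0.313 FPKM in wild type (18.6-fold, log2 fold change 3.68, SE 0.42, limma adjusted p = 8.18e-05). The groups were well apart. Hist1h2bp was at 14.2, 7.01, 11.3 and 16.6 FPKM in knockout, against 0, 0, 0 and 2.55 FPKM in wild type, with no overlap (19.2-fold, log2 fold change 3.21, SE 0.45, limma adjusted p = 2.81e-04). It shares 44.1% of its 50-base windows with other genes and Hist1h2ba shares 38.2%, so some reads could belong to their copies.

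Other cluster H2B genes went the other way or were not called. Hist1h2bh was at 0, 0, 0.200 and 0 FPKM in knockout, against 2.79, 2.52, 3.95 and 1.15 FPKM in wild type (log2 fold change -1.72, SE 0.32, limma adjusted p = 0.00157). Hist1h2bj was at 2.59, 6.39, 5.62 and 2.03 FPKM in knockout, against 8.32, 10.4, 20.98 and 7.79 FPKM in wild type (log2 fold change -1.32, SE 0.39, limma adjusted p = 0.0184). Neither overlapped, though Hist1h2bj was not called without knockout replicate 1, after the GC correction or by limma-voom. Hist1h2bj also shares 59.4% of its 50-base windows with other genes. Hist1h2bc, with 18.3 ± 8.75 FPKM in knockout and 12.7 ± 7.14 FPKM in wild type (SD, n = 4 each), was not called, nor were Hist1h2bg and Hist1h2bm (log2 fold changes 0.46 and -0.36). Untested members were low: Hist1h2bb averaged 1.99 FPKM in knockout and 1.36 FPKM in wild type, Hist1h2bf 1.34 and 0.130 FPKM, Hist1h2bn 0.940 and 2.02 FPKM, Hist2h2be 3.18 and 0.370 FPKM, and Hist3h2ba 0.342 and 1.52 FPKM in knockout and wild type. Summed over H2B, libraries were at 152, 138, 204 and 173 FPKM in knockout, against 22.8, 27.5, 71.2 and 30.5 FPKM in wild type.

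**Figure D4:**
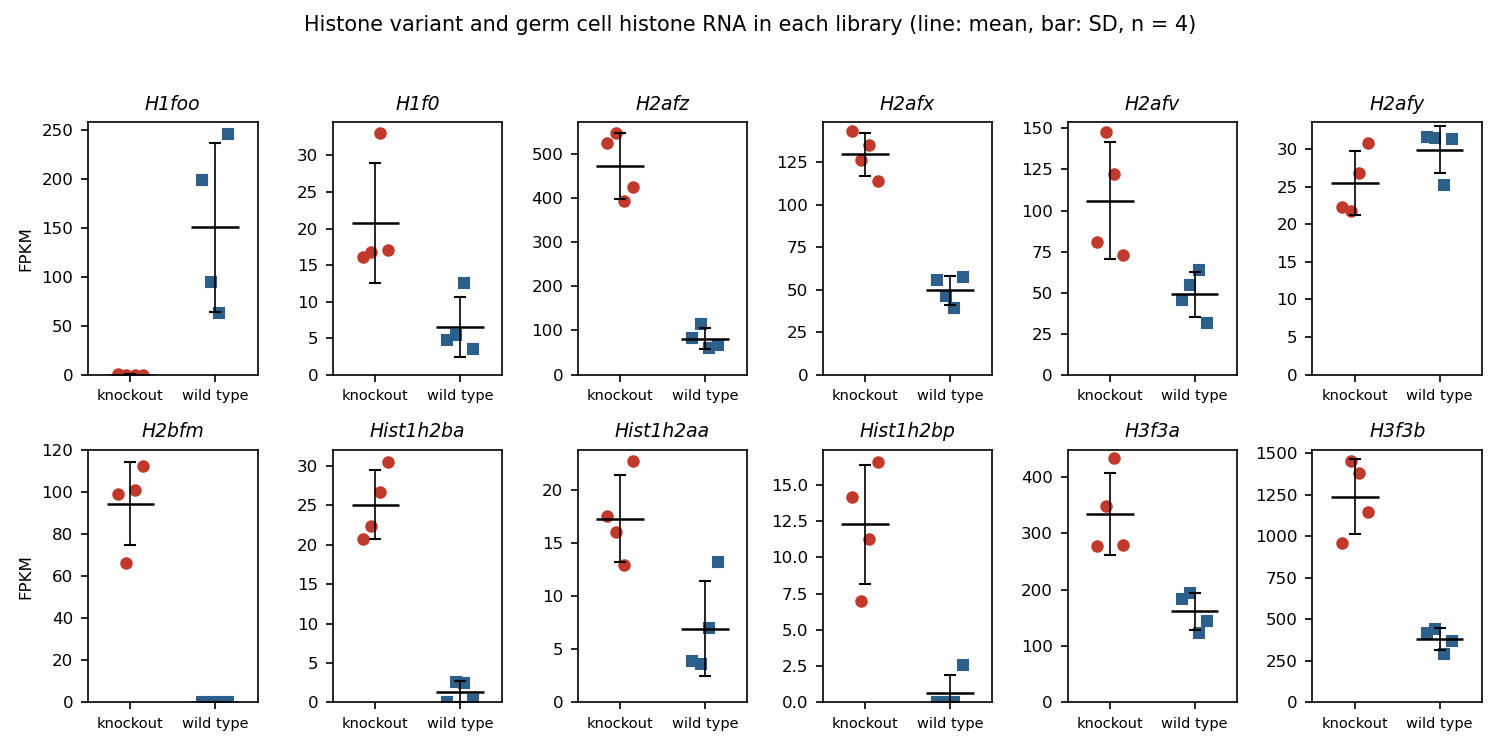
FPKM of 12 histone genes in each library (points), with the mean (line) and SD (bar, not drawn below 0) of 4 libraries, knockout left of wild type and a separate linear axis for each gene. H1foo is near 0 in knockout and 62.6 to 246 FPKM in wild type, H2bfm is 66.2 to 112 FPKM in knockout and 0 in wild type, and for H2afz, H2afx, H2afv, H3f3a and H3f3b all knockout points lie above all wild-type points.

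Promoters are shown for 4 genes on which the results turn: the TH2B gene, the oocyte linker gene, the X-linked H2B gene and H2A.Z. Each spans 250 bases before to 50 after the start in RefSeq (GRCm38.p6), 5′ to 3′ on the gene's strand, with matches to CCAAT, to TATAA and to ATTTGCAT on either strand in capitals.
Hist1h2ba, chr13:23934107-23934406, minus strand: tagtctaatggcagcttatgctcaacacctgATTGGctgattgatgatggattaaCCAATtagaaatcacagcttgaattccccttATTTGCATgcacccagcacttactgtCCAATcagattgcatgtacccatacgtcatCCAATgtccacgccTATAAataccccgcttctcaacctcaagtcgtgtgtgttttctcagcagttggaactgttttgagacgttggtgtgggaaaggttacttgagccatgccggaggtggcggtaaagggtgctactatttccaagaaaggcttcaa
H1foo, chr6:115944681-115944980, plus strand: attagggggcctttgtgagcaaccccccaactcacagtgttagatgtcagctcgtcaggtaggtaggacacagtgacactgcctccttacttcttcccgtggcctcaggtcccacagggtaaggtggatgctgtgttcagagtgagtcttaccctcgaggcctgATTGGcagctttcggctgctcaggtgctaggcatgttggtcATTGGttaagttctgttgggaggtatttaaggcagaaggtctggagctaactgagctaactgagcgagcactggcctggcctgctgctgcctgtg
H2bfm, chrX:136927075-136927374, plus strand: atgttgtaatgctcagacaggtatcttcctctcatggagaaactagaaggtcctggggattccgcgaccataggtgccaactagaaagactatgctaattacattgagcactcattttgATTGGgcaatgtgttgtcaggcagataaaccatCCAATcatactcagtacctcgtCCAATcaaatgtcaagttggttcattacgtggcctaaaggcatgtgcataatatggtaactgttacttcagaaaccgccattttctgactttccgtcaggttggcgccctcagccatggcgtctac
H2afz, chr3:137864237-137864536, plus strand: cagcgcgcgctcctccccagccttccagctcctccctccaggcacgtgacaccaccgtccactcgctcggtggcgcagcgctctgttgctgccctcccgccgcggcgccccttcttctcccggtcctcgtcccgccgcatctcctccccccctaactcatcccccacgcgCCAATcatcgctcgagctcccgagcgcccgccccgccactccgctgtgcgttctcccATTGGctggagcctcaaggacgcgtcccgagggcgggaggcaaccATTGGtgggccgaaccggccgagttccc
CCAAT, a core bound by NF-Y, lies in a promoter of 85.5% of the 62 cluster genes matched, 73.3% of the 15 variants matched and 41.1% of all 27025 genes with a promoter. A gene counts if any of its promoter windows holds the match. TATAA was found for 80.6% of cluster genes, 13.3% of variants and 7565 of the 27025 genes, and the octamer ATTTGCAT for 22.6%, 6.67% and 1.97%. Among the 16 cluster H2B genes the octamer was found for 43.8%, Hist1h2ba included. Windows of divergent neighbours can overlap, as those of Hist1h2ba and Hist1h2aa do and those of Hist1h2bk and Hist1h2ah. A match in the overlap counts for both genes, so the cluster windows are not independent. TAATTG, which on the reverse strand can overlap CCAAT, was found for 8.06% of cluster genes, 13.3% of variants and 9.22% of all genes, and the E-box CANNTG for 69.4%, 66.7% and 75.0%. All 4 printed promoters hold CCAAT, and of these Hist1h2ba alone holds TATAA, ATTTGCAT and TAATTG. A match in letters is a description of the window and no more.

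The start of Hist1h2ba faces that of Hist1h2aa across 305 bases, so that the Hist1h2ba window printed above also covers most of the sequence between them. In the annotation 14 pairs of histone genes are divergent within 1000 bases, 172 to 659 bases apart. Both genes were tested in 3 of these pairs. Hist1h2ba and Hist1h2aa were both called higher, Hist1h2bh and Hist1h3f (659 bases apart) were both called lower, and Hist1h2ae and Hist1h2bg were not called.

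Both H3.3 genes were called higher, and 4 of the 7 cluster H3 genes tested were called lower. H3f3a and H3f3b encode the same replacement histone, H3.3, which is laid down at active genes outside S phase, and together they summed to 1571 ± 285 FPKM in knockout and 542 ± 99.3 FPKM in wild type (SD, n = 4 each). H3f3b (chr11:116021912-116027962, minus strand, GRCm38) was at 961, 1454, 1382 and 1146 FPKM in knockout, against 419, 443, 292 and 369 FPKM in wild type (3.25-fold, log2 fold change 1.70, SE 0.20, limma adjusted p = 8.18e-05). H3f3a was at 278, 349, 433 and 280 FPKM in knockout, against 183, 194, 124 and 145 FPKM in wild type (2.07-fold, log2 fold change 1.05, SE 0.21, limma adjusted p = 0.00234). Neither overlapped between genotypes, but after a correction for GC content the difference of H3f3a was 0.57 with a limma adjusted p of 0.0662. The ratio of H3f3b to H3f3a was 3.73 ± 0.481 in knockout and 2.37 ± 0.123 in wild type (SD, n = 4 each), with no overlap. H3f3a shares 27.1% of its 50-base windows with other annotated genes, H3f3c among them.

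Cluster H3 genes encode the S-phase forms H3.1 and H3.2. Of 12 members 7 were tested, 4 were called lower and none higher (57.1% lower, beside 25.6% of all genes tested), and the median log2 fold change was -1.64. Hist1h3a, the most abundant, was at 2.56, 1.93, 6.29 and 0.392 FPKM in knockout, against 16.2, 17.5, 12.4 and 10.6 FPKM in wild type, with no overlap (log2 fold change -2.22, SE 0.44, limma adjusted p = 0.00224). It shares 49.5% of its 50-base windows with other genes. Hist1h3e had 0.102, 2.71, 7.93 and 0 FPKM in knockout, against 6.71, 5.42, 13.6 and 13.7 FPKM in wild type, where knockout replicate 3 reached into the wild-type range (log2 fold change -2.04, limma adjusted p = 0.0257). Its windows are shared with other genes at 73.4%, and it was not called without knockout replicate 1 or 4 or wild-type replicate 3 or 4, without a filter or by limma-voom. Hist1h3f had 1.49, 1.2, 0.799 and 2.65 FPKM in knockout, against 4.52, 4.47, 4.70 and 2.86 FPKM in wild type (log2 fold change -1.05, limma adjusted p = 0.0168), and lost its call with quantile scaling, by limma-voom and without the 3 libraries richest in somatic markers. Hist1h3i (log2 fold change -1.65, limma adjusted p = 0.0368) was at 0 to 3.47 FPKM in knockout and 2.45 to 12.7 FPKM in wild type, and lost its call in 11 of 22 alternatives, among them leaving out knockout replicate 1, 2 or 4 or wild-type replicate 2, 3 or 4. Its shared windows are 87.6%. Hist1h3b and Hist1h3c, with log2 fold changes of -1.21 and -1.64, and Hist2h3c2, with -0.05, were not called. The untested Hist1h3g averaged 1.06 FPKM in knockout and 0.605 FPKM in wild type, and Hist1h3h 0.302 and 1.74 FPKM in knockout and wild type. Summed, cluster H3 was at 9.14, 9.85, 27.6 and 3.75 FPKM in knockout, against 37.9, 43.2, 74.9 and 33.5 FPKM in wild type. This is 0.759% ± 0.529 of all H3 FPKM in knockout and 8.41% ± 4.58 in wild type (SD, n = 4 each).

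H4 has no variant gene under the symbol rule, and its totals overlapped between genotypes: 99.8, 90.9, 179 and 83.8 FPKM in knockout, against 114, 130, 193 and 142 FPKM in wild type. A single gene carried most of it. Hist1h4d was at 62.8, 56.4, 120 and 62.6 FPKM in knockout, against 83.5, 104, 131 and 96.3 FPKM in wild type, and was not called (log2 fold change -0.50, SE 0.25, limma adjusted p = 0.129). It was 66.6% ± 5.75 of H4 FPKM in knockout and 72.2% ± 5.78 in wild type (SD, n = 4 each), and it was called lower without knockout replicate 3. Hist1h4a was the H4 gene called, at 0.952, 0.510, 1.87 and 0 FPKM in knockout, against 2.80, 5.04, 3.52 and 1.34 FPKM in wild type (log2 fold change -1.21, limma adjusted p = 0.0323), and it lost its call in 12 of 22 alternatives, among them leaving out knockout replicate 2 or 4 or wild-type replicate 1, 2 or 3. Hist1h4c, at 8.29 ± 1.84 FPKM in knockout and 16.4 ± 7.06 FPKM in wild type (SD, n = 4 each), missed the threshold (limma adjusted p = 0.0503) and was called lower in 7 of 23 alternatives. Hist1h4i averaged 15.1 ± 6.37 FPKM in knockout and 10.0 ± 5.39 FPKM in wild type (SD, n = 4 each), and with Hist1h4h and Hist4h4 (log2 fold changes 0.55, 0.37 and 0.25 in that order) it was not called. Low, untested members were Hist1h4f (0.737 FPKM in knockout and 1.37 FPKM in wild type), Hist1h4j (1.05 and 0.0650), Hist1h4k (1.70 and 0.229), Hist1h4m (0.128 and 1.67), Hist1h4n (0.443 and 2.23) and Hist2h4 (0.188 and 1.17 FPKM).

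The order of levels differed between genotypes. In knockout H3f3b (1236 FPKM) led, followed by H2afz (472), H3f3a (335), H2afx (130), H2afv (106), H2bfm (94.7) and Hist1h4d (75.3). In wild type the order was H3f3b (381 FPKM), H3f3a (162), H1foo (151), Hist1h4d (104), H2afz (81.2), H2afx (49.7) and H2afv (48.9). In knockout the libraries of H2afz and H3f3a overlapped, as did those of H2afx and H2afv, of H2afv and H2bfm, and of H2bfm and Hist1h4d. In wild type H3f3a and H1foo overlapped, as did H1foo and Hist1h4d, Hist1h4d and H2afz, and H2afx and H2afv, so those places are not set beyond the spread.

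The cluster sum was highest in replicate 3 of both genotypes. Replicate 3 was also the highest library for 34 of 48 cluster genes with a mean of 1 FPKM or more among the knockouts, and for 28 of 48 among the wild types. That knockout library had mean marker levels of 4.62 for granulosa, 4.29 for immune and 3.87 for stroma on the log2(FPKM + 1) scale, against 0.89 to 2.54, 0.79 to 2.02 and 0.85 to 3.95 in the other knockouts. In wild-type replicate 3 granulosa stood at 2.22, stroma at 2.74 and erythroid markers at 7.08, against 0.18 to 0.92, 0.43 to 1.69 and 1.15 to 6.10 in the other wild types. Knockout replicate 2 had as much stromal signal (3.95) but less granulosa (2.54) and immune signal (2.02). Its cluster sum was 242 FPKM, close to replicates 1 and 4. Proliferation markers were not higher in replicate 3, at 4.92 in knockout (4.90 to 5.43 in the others) and 4.67 in wild type (4.82 to 5.12 in the others). The part of these cells in the cluster RNA was not tested. H1foo, H2bfm, H2afz, H2afx, H2afv, H3f3a and H3f3b kept their calls without knockout replicate 3 and without the 3 libraries richest in stromal and granulosa markers. Libraries also stood apart for other markers: knockout replicate 1 held 354 FPKM of endothelial markers, with the other knockouts at 5.98 to 8.62 FPKM, and wild-type replicates 1 and 3 held 4211 and 5368 FPKM of erythroid markers, with the other wild types at 11.9 and 161 FPKM. The 7 genes just named also kept their calls without knockout replicate 1 and without wild-type replicate 1, each left out in turn.

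**Figure D5:**
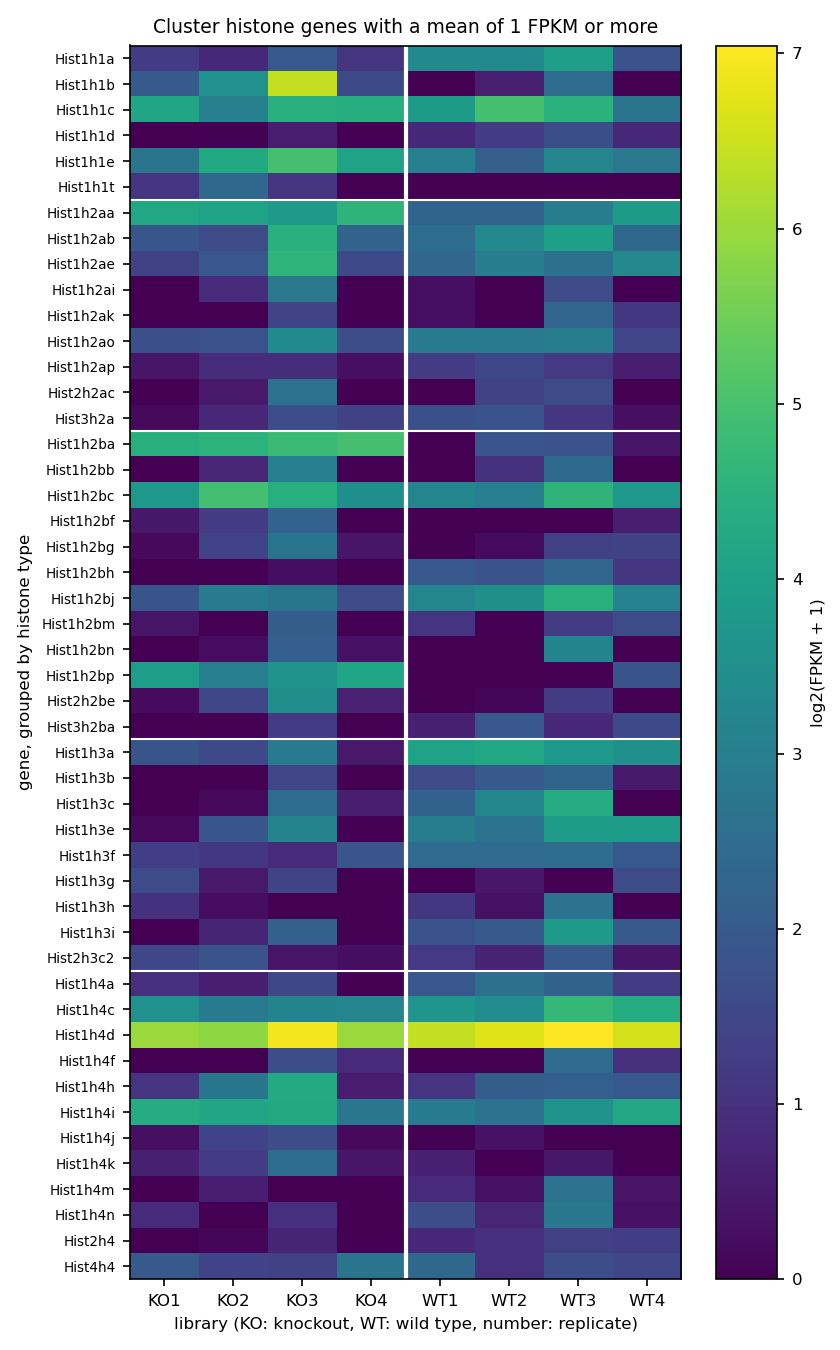
Level, as log2(FPKM + 1), of the 48 cluster histone genes with a mean of 1 FPKM or more in a genotype (rows, grouped by histone type) in 4 knockout (left) and 4 wild-type libraries (right). Replicate 3 is brightest in most rows of both genotypes, Hist1h2ba and Hist1h2bp are bright in knockout, and cluster H3 rows such as Hist1h3a are brighter in wild type.

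Cluster genes were also grouped by annotated 3′ end, taken from the longest transcript that holds the stem-loop match. The 22 cluster genes with over 100 annotated bases after the stem-loop had a median level of 1.39 FPKM in knockout and 1.52 FPKM in wild type. In the 22 with 100 bases or fewer it was 0.810 FPKM in knockout and 1.30 FPKM in wild type. In the 24 whose annotated transcript holds no match to the pattern it was 0.871 FPKM in knockout and 0.485 FPKM in wild type. Such a transcript may end before its stem-loop in the annotation. The groups also differed in shared sequence: in that order, medians of 23.35%, 63.1% and 77.15% of 50-base windows occur in another annotated gene. The part of 3′ ends or of shared sequence in these levels was not tested. Cluster genes share a median of 51.9% of their 50-base windows with another annotated gene, against 7.50% for variants. In 34 of the 68 it is over 50%. The 5 cluster genes that are shared in full (Hist2h2aa1, Hist2h2aa2, Hist2h2bb, Hist2h3b and Hist2h3c1) had no reads. Each of them has exons that overlap another annotated gene at its own locus. Their RNA may therefore be counted elsewhere or not at all. Exons of 24 cluster and 7 variant genes overlap another annotated gene.

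Genes that process histone mRNA went both ways. Of 29 tested members of this list 9 were called higher and 7 lower (55.2% called, beside 43.4% of all genes tested, of which 17.7% were called higher and 25.6% lower; median log2 fold change 0.06). Slbp, the protein that binds the stem-loop, averaged 121.5 ± 22.3 FPKM in knockout and 34.1 ± 10.0 FPKM in wild type (SD, n = 4 each; log2 fold change 1.83, limma adjusted p = 2.20e-04). Npat, which switches on cluster transcription in S phase, was higher too (23.0 ± 2.73 FPKM in knockout and 10.1 ± 3.75 FPKM in wild type, log2 fold change 1.17), as were Cstf3, a cleavage factor (2.35), and Mif4gd, a partner of Slbp in translation (1.93). Genes of the machinery that cuts histone mRNA were called in both directions. Of the U7 particle and its partners Lsm10 (log2 fold change -2.30), Lsm11 (-0.92) and Zfp473 (-1.73) were lower and Casp8ap2, the FLASH gene, was higher (0.64, limma adjusted p = 0.0334). Of the cleavage complex the scaffold Sympk was lower (-1.64) and Cpsf2 higher (0.69, limma adjusted p = 0.0294), while Cpsf1, Cpsf3 and Cpsf4 were not called (log2 fold changes 0.06, 0.54 and -0.49). After the GC correction 4 members of this list were higher.

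Histone chaperones and exchange factors were called in 22 of 48 tested members (9 higher, 13 lower; 45.8% called, 18.8% higher and 27.1% lower, close to the 43.4%, 17.7% and 25.6% of all genes tested; median log2 fold change -0.29). Npm2, the nucleoplasmin stored in oocytes, was at 1.39 ± 0.813 FPKM in knockout and 432.8 ± 181.2 FPKM in wild type (SD, n = 4 each; log2 fold change -7.49, limma adjusted p = 2.01e-07). Vps72, which loads H2A.Z, was lower (24.2 ± 3.76 FPKM in knockout and 84.2 ± 10.8 FPKM in wild type, log2 fold change -1.76), and Anp32e, which removes H2A.Z, was higher (23.6 ± 6.48 FPKM in knockout and 5.02 ± 1.11 FPKM in wild type, 2.01). Nasp, an H1 and H3–H4 chaperone, and Asf1b, which hands on H3–H4, were higher by log2 fold changes of 1.16 and 1.17, as was the centromere factor Oip5 (1.71). Macrod1, an enzyme with a macrodomain, was lower (-1.93). Hira, a chaperone of H3.3, was low in both genotypes (0.983 ± 0.452 FPKM in knockout and 2.09 ± 0.938 FPKM in wild type; SD, n = 4 each) and was not called (limma adjusted p = 0.145).

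S-phase and replication genes were called in both directions. Of 36 tested 8 were called higher and 10 lower (18 of the 36 called, 22.2% higher and 27.8% lower, beside 43.4%, 17.7% and 25.6% of all genes tested; median log2 fold change 0.11). Ccne2, the cyclin E2 gene, was higher (48.7 ± 6.03 FPKM in knockout and 12.3 ± 4.50 FPKM in wild type, log2 fold change 1.96), and Slbp is also in this list. The transcription factor gene E2f1 (-2.93) and the replication licensing gene Cdt1 (-1.92) were lower.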

How the data were processed

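The authors deposited a table of FPKM values per Ensembl gene for 8 libraries amplified with 18 cycles. The submitters' processing notes name cutadapt, HISAT2 and HTSeq with GRCm38 (mm10), without versions. Symbols came from a GENCODE M21 name table. The 8 rule-matching genes of that table that are not in the expression table were not analysed here. In each library 97.4% to 97.6% of nonzero values were whole reads within 0.02 reads once gene length and depth were divided out, giving 9554090 to 14526326 reads in knockout and 8310774 to 11926922 in wild type. Read floors cover counting error only.

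The 11235 genes that reached 1 FPKM in 4 libraries entered a single fit on log2(FPKM + 1) (limma 3.58.1, R 4.3.3), with genotype as the term, trended eBayes, two-sided, Benjamini-Hochberg over all genes tested. Fold changes on this scale understate those of low genes. On simulated data (11084 genes) the fit called 9 of 84 genes changed 2-fold and 88 of 109 changed 4-fold in the right direction. Of its 106 calls 9 were false, and most simulated 2-fold changes went uncalled. With 106 calls there against 4871 in the data, the p needed for a call was smaller in the simulation. Its rates are therefore not those of the real fit. Each member with a mean of 1 FPKM in a genotype is named, with its values per library where it reached 10 and a result turned on it. From the other lists, the genes of a preset name list and up to 4 called genes with the smallest p are named. Anp32e, Lsm10, Casp8ap2 and the other genes outside that rule were chosen after their values were seen. Members and lists were chosen with earlier results of these data known. Alternatives covered pseudocount, filter, scaling, weights, GC content, voom on recovered reads and left-out libraries.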

Additional observations from a re-analysis of the deposited data

Results flagged for a closer look

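In 123 groups of 4 libraries (Rbpms2, the members with a mean of 1 FPKM or more and the sums of variant and cluster genes, by genotype and where not all at 0) the highest or lowest library stood apart in 36, its gap to the nearest other exceeding Dixon's critical share of the range. For independent, normally spread values chance alone flags about 1 in 20 groups. That rate does not hold here: where all libraries but 1 are at 0, the gap is the whole range and the flag is certain. The 36 can therefore not be read as an excess over it. Of the 36, 20 were in knockout replicate 3, 7 in wild-type replicate 3, 4 in wild-type replicate 4, 3 in knockout replicate 1, and 1 each in knockout replicate 2 and wild-type replicate 2.

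In knockout replicate 3 the cluster genes summed to 535 FPKM, with the other knockouts at 217 to 242 FPKM. Linker genes high there were Hist1h1b (83.5 FPKM), H1f0 (33.1 FPKM) and Hist1h1d (0.486 FPKM). Of the H2A genes, Hist1h2ae was at 23.4, Hist1h2ab at 21.3, Hist1h2ao at 9.27, Hist1h2ai at 5.98, Hist2h2ac at 5.17 and Hist1h2ak at 1.71 FPKM. H2B genes were Hist2h2be at 10.2, Hist1h2bb at 7.27, Hist1h2bn at 3.31, Hist1h2bm at 3.20, Hist3h2ba at 1.37 and Hist1h2bh at 0.200 FPKM. The H3 and H4 genes were Hist1h3c at 4.66, Hist1h3b at 1.76, Hist1h4d at 120 and Hist2h4 at 0.670 FPKM. All of these stood above the other 3 knockout libraries, and this is the library with the highest granulosa and immune marker levels. The part of those cells was not tested.

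Knockout replicate 1 was high for H1foo (0.285 FPKM, others 0) and Hist1h3h (1.04 FPKM) and low for H2afj (2.43 FPKM, others 5.02 to 5.46). Knockout replicate 2 was high for Hist1h4m (0.513 FPKM, others 0).

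Wild-type replicate 3 was high for Hist1h3i (12.7 FPKM), Hist1h2bn (8.08), Hist1h4m (5.30), Hist1h1b (4.62), Hist1h2ai (2.11) and Hist2h2be (1.40 FPKM), and low for H2afy (25.2 FPKM, others 31.3 to 31.6). Wild-type replicate 4 was high for Hist1h2bp (2.55 FPKM, others 0) and Hist1h2bf (0.521 FPKM, others 0), and low for Hist1h3f (2.86 FPKM) and Hist1h2ao (1.75 FPKM). In wild-type replicate 2 Hist1h4j was at 0.260 FPKM, with the others at 0.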

How the results depend on the processing

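Of 21 called histone genes 11 stayed called in all 23 alternatives in which they were tested (H1f0, H1foo, H2afv, H2afx, H2afz, H2bfm, H3f3b, Hist1h2ba, Hist1h2bh, Hist1h2bp and Hist1h3a, with Hist1h2bh not tested at the 5 FPKM filter), 10 lost the call at least once, and no called gene changed sign. The number called lower, 9, was 5 at the 5 FPKM filter and 3 with limma-voom on recovered reads, which called 4606 genes in all. Higher histone mRNA processing genes numbered 4 after the GC correction and 4 after the GC correction with the replicate block. Without the 3 libraries richest in somatic markers 1 histone gene outside the symbol rule, Cenpa, was called lower. Leaving out one library at a time gave 10 to 12 histone genes higher and 6 to 13 lower, 5 to 9 processing genes higher (5 without knockout replicate 1 or wild-type replicate 4) and 0 to 1 outside genes lower (1 without knockout replicate 2). The median log2 fold change of all genes was 0.01 with median-of-ratios scaling and 0.04 with quantile scaling, against -0.12, and no called histone gene changed sign under either.

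Replicate numbers share no stated animal, litter or day, so no label pairs the samples. Same-numbered libraries correlated at 0.185, 0.0158, 0.361 and -0.053 in their deviations, and for 2 of the 4 numbers the best partner was the same number. Whether same-numbered libraries shared a batch was not tested. With the replicate block 5034 genes were called (44.8%), and 12 histone genes higher and 13 lower.

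The log2 fold changes that changed sign were all of members not called. Hist1h1c was at -0.007 (pseudocount 5), -0.256 (array weights) and -0.061 (voom), and at -0.41 to 0.339 without one library. Hist2h3c2 was at 0.024 (median-of-ratios), 0.261 (quantile), 0.234 (array weights), 0.65 (GC, with and without the block) and 0.133 (without the somatic-rich libraries), and at -0.328 to 0.25 without one library. H2afy2 was at -0.058 (array weights), -0.633 (without the somatic-rich libraries) and -0.086 to 0.47 without one library. Hist3h2a was at 0.145 (quantile) and -0.539 to 0.051 without one library. After the GC correction, with and without the block, H2afy was at 0.052, Hist1h2ab at 0.479, Hist1h2ao at 0.49, Hist1h2bm at 0.193 and Hist4h4 at -0.173. Without the somatic-rich libraries Hist1h2bg was at -0.22 and Hist1h4h at -0.887. Without one library Hist1h2bg ranged from -0.054 to 0.799, Hist1h4h from -0.341 to 0.917 and Hist4h4 from -0.034 to 0.499. For all of these the cause was not tested. Low reads limit the cluster genes: Hist1h2bh rested on 4 reads in knockout and 170 in wild type.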

Other observations

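Histone and histone-like genes outside the symbol rule were mostly silent in both genotypes. Of 12 in the table, Cenpa, the centromeric H3 gene, was tested, at 6.75 ± 7.37 FPKM in knockout and 10.5 ± 3.21 FPKM in wild type (SD, n = 4 each), and it was not called (log2 fold change -1.10, limma adjusted p = 0.177). The sperm packaging genes Prm1, Prm3 and Hils1 had no reads, Tnp1 and Tnp2 averaged 0.192 and 0.189 FPKM in knockout and 0 in wild type, and Prm2 averaged 0 in knockout and 0.117 FPKM in wild type.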
